A study of Arabidopsis thaliana with 11 samples.

Results

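The places on the Arabidopsis thaliana genome precipitated with the small protein ACD15 were compared with those precipitated with ACD21, by chromatin immunoprecipitation and sequencing of inflorescences. The members were chosen by sample label: 2 libraries of plants carrying ACD15.5-3XFLAG and 2 libraries of plants carrying ACD21.4-3XFLAG, 4 of the 11 libraries of the series. After peaks with the same start and end were joined, their lists held 26952 regions of the 36079 regions in the 8 library lists of the series. The ACD15-FLAG libraries held 5661 and 10946 regions, and the ACD21-FLAG libraries held 6774 and 3571. All 4 libraries were made in batch 1 with the M2 antibody against the FLAG tag, from Col-0 plants of wild-type genotype grown in long days (16 h of light and 8 h of darkness). Each transgene was therefore added to plants that keep their own copies of both genes. The sources used here state neither the promoter of the transgenes nor whether replicates came from separate plants or lines. A control without transgene belongs to the same batch; its own list is not used here. Peak lists hold no read depth, so the precision that depth gives is unknown, and absence from a list means only that no peak was called.

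Plants keep many transposons and some genes silent by methylating cytosines, and methylation of CG dinucleotides is copied to the new strand after replication. MBD5 and MBD6 carry a methyl-CG-binding domain that reads this mark. ACD15 and ACD21, small proteins with the alpha-crystallin fold of small heat shock proteins, and SLN, a J-domain protein, belong to the same complex. The comparison therefore sets 2 partners of 1 complex side by side and shows where their strongest sites coincide and where they part.

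Both proteins shared their main sites, yet they ordered them differently, and their lists differed in CG density. Sites were split by the top 3500 regions of each library, called its top list. The ACD15 set was in both ACD15 top lists and in neither ACD21 top list, with median ranks of 2672 and 2673 in ACD15-FLAG. The ACD21 set was the reverse, with 2251 and 2350 in ACD21-FLAG. Most of these sites were still called in 1 library of the other protein beyond that cutoff: 292 of 345 in ACD21 replicate 1 and 290 of 299 in ACD15 replicate 2. The library with the shorter list held fewer: 7 of 345 in ACD21 replicate 2 and 119 of 299 in ACD15 replicate 1. The ACD15 set held fewer CG dinucleotides than the sites of all 4 lists (2.49 against 4.58 per 100 bp on average). That was close to the 2.34 of the genome. The ACD15 set often lay in gene promoters. The ACD21 set was rich in CG and often lay in gene-poor chromosome parts or coding exons. A set of 6 sites shows this range and are printed from the plus strand of the TAIR10.1 reference, with every CG in capitals; in each class they are the 2 highest-ranking sites whose window of 150 bp around the ACD15-FLAG or ACD21-FLAG summit touched no exon and no gene of the transgenes. The first pair ranked high in both ACD15 lists only, at chr1:29380615-29380764 (506 bp beyond the pseudogene AT1G78095) and at chr1:4326444-4326593 (141 bp upstream of RPF1, a gene for a mitochondrial RNA processing factor), with 0 and 2 CG.
AT1G78095: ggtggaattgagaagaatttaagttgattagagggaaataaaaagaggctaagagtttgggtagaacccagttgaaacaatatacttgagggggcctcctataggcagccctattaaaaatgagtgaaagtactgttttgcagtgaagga
RPF1: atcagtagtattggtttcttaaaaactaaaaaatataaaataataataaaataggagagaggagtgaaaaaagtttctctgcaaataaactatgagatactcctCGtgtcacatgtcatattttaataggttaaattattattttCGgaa
The next pair ranked high in both ACD21 lists only, at chr4:7425131-7425280 (2629 bp beyond AT4G12530) and at chr3:13376985-13377134 (1592 bp upstream of AT3G32420), with 6 and 16 CG.
AT4G12530: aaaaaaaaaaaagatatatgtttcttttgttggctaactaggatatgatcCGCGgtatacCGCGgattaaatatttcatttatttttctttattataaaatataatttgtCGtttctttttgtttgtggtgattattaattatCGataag
AT3G32420: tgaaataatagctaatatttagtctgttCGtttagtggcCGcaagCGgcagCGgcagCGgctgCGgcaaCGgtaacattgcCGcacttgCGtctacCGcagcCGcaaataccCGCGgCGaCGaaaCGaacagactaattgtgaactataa
The last pair stood near the top of all 4 lists, at chr4:10632888-10633037 (657 bp upstream of AT4G19510) and at chr5:9983843-9983992 (127 bp upstream of AT5G27950), with 13 and 19 CG.
AT4G19510: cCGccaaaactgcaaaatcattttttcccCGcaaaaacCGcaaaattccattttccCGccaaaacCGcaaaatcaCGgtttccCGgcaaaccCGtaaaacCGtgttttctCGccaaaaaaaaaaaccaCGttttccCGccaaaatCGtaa
AT5G27950: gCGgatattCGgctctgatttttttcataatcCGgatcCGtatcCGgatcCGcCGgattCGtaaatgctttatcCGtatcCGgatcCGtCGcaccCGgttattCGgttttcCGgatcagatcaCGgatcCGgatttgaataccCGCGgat

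The labels were checked first at the genes of the tagged proteins, whose loci, like that of SLN, were assigned from background knowledge, since the files do not pair them with these names. A region on chromosome 1 from 28682362 to 28684485 overlapped AT1G76440, the ACD15 gene, in both ACD15 libraries, at ranks 5 and 34 with folds of 7.65 and 9.26, and no ACD21 library had a region there. A region on chromosome 1 from 20453893 to 20456003 overlapped AT1G54850, the ACD21 gene, and the start of its neighbour AT1G54840. It was called in both ACD21 libraries, at ranks 111 and 73 with folds of 8.66 and 6.82, and in no ACD15 library. Fold here is the enrichment over background that the authors' peak caller deposited. Each library thus had a region at the gene of its own tagged protein only. Neither region overlapped the deposited regions of MBD5 and MBD6, and reads of an added gene copy cannot be told apart from binding at the native gene. Each of these regions stands among the sites of 1 protein counted further on.

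Lists were compared at equal length, with the 3500 regions of the highest column 9 (−log10 q) in each library. The region at rank 3500 had a −log10 q of 9.45 and 33.9 in the ACD15 libraries and of 13.0 and 2.97 in the ACD21 libraries, with folds of 2.18 and 3.54 against 2.22 and 1.68. The region at the next rank had 9.45 and 33.9 against 13.0 and 2.97 as well. The same rank therefore stood for very different values of the peak caller, and 2161 and 7446 regions lay below it in the ACD15 lists, against 3274 and 71 in the ACD21 lists.

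The breadth of the regions overlapped between the proteins. The median width of the top 3500 regions was 439 and 689 bp in ACD15-FLAG, against 469 and 342 bp in ACD21-FLAG, and together they covered 1885 and 2962 kb against 2055 and 1497 kb. More than 1 summit was found in 22.03% and 38.6% of ACD15 regions, against 25.4% and 15.3% of ACD21 regions. ACD15 replicate 1 lay between the ACD21 libraries in each of these measures, so the groups overlapped. The exact two-sided permutation test over the 4 libraries gave p = 0.667 for width (564 ± 177 bp in ACD15-FLAG against 405.5 ± 89.8 bp in ACD21-FLAG, SD, n = 2 each), for covered length and for several summits, and also for the number of regions in full, where ACD15-FLAG exceeded ACD21-FLAG by 0.68 on the log2 scale. Single libraries decided these sizes. Without ACD15 replicate 1 the difference in number was 1.15 on the log2 scale, in width 283.5 bp and in several summits 18.23 percentage points, and without ACD21 replicate 1 they were 1.14, 222 bp and 15.0 points. Without ACD15 replicate 2 they were 0.203, 33.5 bp and 1.69 points, and without ACD21 replicate 2 they were 0.217, 95 bp and 4.87 points. Covered length, with a difference of 0.43 on the log2 scale, had 0.756 and 0.104 without ACD15 replicates 1 and 2, and 0.659 and 0.201 without ACD21 replicates 1 and 2. Widths followed list length: ACD15 replicate 2, with the longest list, had the broadest regions, and ACD21 replicate 2, with the shortest, the narrowest.

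Most top sites belonged to all 4 lists. Overlapping regions of the 4 top lists were merged into 4495 sites, and 2371 of them (52.7%) held a region of every library. A site was in both ACD15 lists and neither ACD21 list in 345 cases (7.68% of all sites) and in both ACD21 lists and neither ACD15 list in 299 cases (6.65%). The 4 combinations of 1 ACD15 with 1 ACD21 library held 11 to 60 sites each. Sites in a single list numbered 197 and 196 for the ACD15 libraries, against 213 and 201 for the ACD21 libraries.

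**Figure D1:**
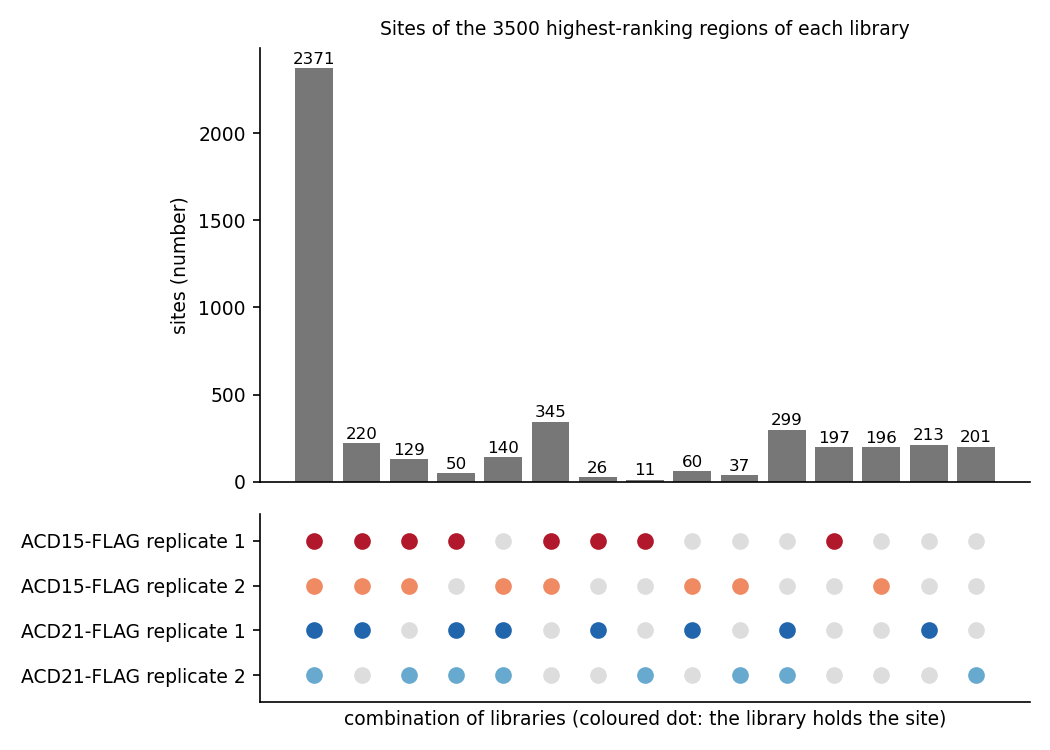
Number of sites (y axis) by the combination of libraries whose top 3500 regions hold them, from all 4 libraries on the left to single libraries on the right. Coloured dots mark the libraries that hold a site. The bar of all 4 libraries stands at 2371, and the bars of both ACD15 libraries and of both ACD21 libraries at 345 and 299, above the other pairs at 11 to 60.

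Most sites of 1 protein were weak rather than missing in the other. Of the 345 ACD15 sites, 292 held a region of the full list of ACD21 replicate 1 and 7 a region of ACD21 replicate 2, and 52 were in neither full list. Of the 299 ACD21 sites, 119 held a region of ACD15 replicate 1 and 290 a region of ACD15 replicate 2, and 6 were in neither. The full list of ACD21 replicate 2 extends only 71 regions past rank 3500, so absence from it says little. In the top 1500 the counts were 215 for ACD15 and 202 for ACD21. With the full lists, which differ in length, they were 661 and 11. In the top 3500, the ACD15 count was 541 without ACD15 replicate 1, 572 without ACD15 replicate 2 and 565 without ACD21 replicate 1. The ACD21 count there was 463 without ACD15 replicate 2, 513 without ACD21 replicate 1 and 512 without ACD21 replicate 2.

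Replicates of 1 protein shared more of their top regions than libraries of different proteins did. Among the 3500 regions, 91.9% of ACD15 replicate 1 overlapped ACD15 replicate 2 and 87.6% the other way, and the ACD21 pair had 84.4% and 87.9%. Between an ACD15 and an ACD21 library the shares ran from 75.9% to 83.5%. Among the 250 highest regions the gap was wider, with 89.2% of ACD15 replicate 1 in ACD15 replicate 2, 87.6% of ACD21 replicate 1 in ACD21 replicate 2, and 61.2% to 70.4% between proteins. The Jaccard index, the bases shared over the bases in either list, reached 0.572 between ACD15 replicates and 0.621 between ACD21 replicates, and 0.608, 0.556, 0.543 and 0.416 between proteins. ACD15 replicate 1 and ACD21 replicate 1, whose widths were alike, therefore had a higher index than the ACD15 pair. With every region set to 200 bp around its best summit, an alternative chosen after seeing the data, the pairs of 1 protein had 0.638 for ACD15 and 0.588 for ACD21, and those between proteins ran from 0.474 to 0.532. The mean index within proteins exceeded that between proteins by 0.0654 at full width (one-sided exact permutation over the 3 ways to pair the libraries, p = 0.333, the smallest possible). Without ACD21 replicate 2 this difference was −0.00392.

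Where both proteins had a region, their summits nearly coincided. The median distance between best summits at overlapping top 3500 regions was 13 bp within each protein and 13 to 16 bp between proteins. Between proteins 59.7% to 67.8% of summits lay within 20 bp, against 68.3% in the ACD15 pair and 66.3% in the ACD21 pair. Among regions with 1 summit in both libraries the medians were 11 bp in the ACD15 pair, 13 bp in the ACD21 pair and 12 to 15 bp between proteins. The mean of the medians was 1.75 bp greater between than within proteins (one-sided exact permutation p = 0.333). At the 250 highest regions the medians were 7 bp in the ACD15 pair, 6 bp in the ACD21 pair and 9 or 10 bp between proteins.

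**Figure D2:**
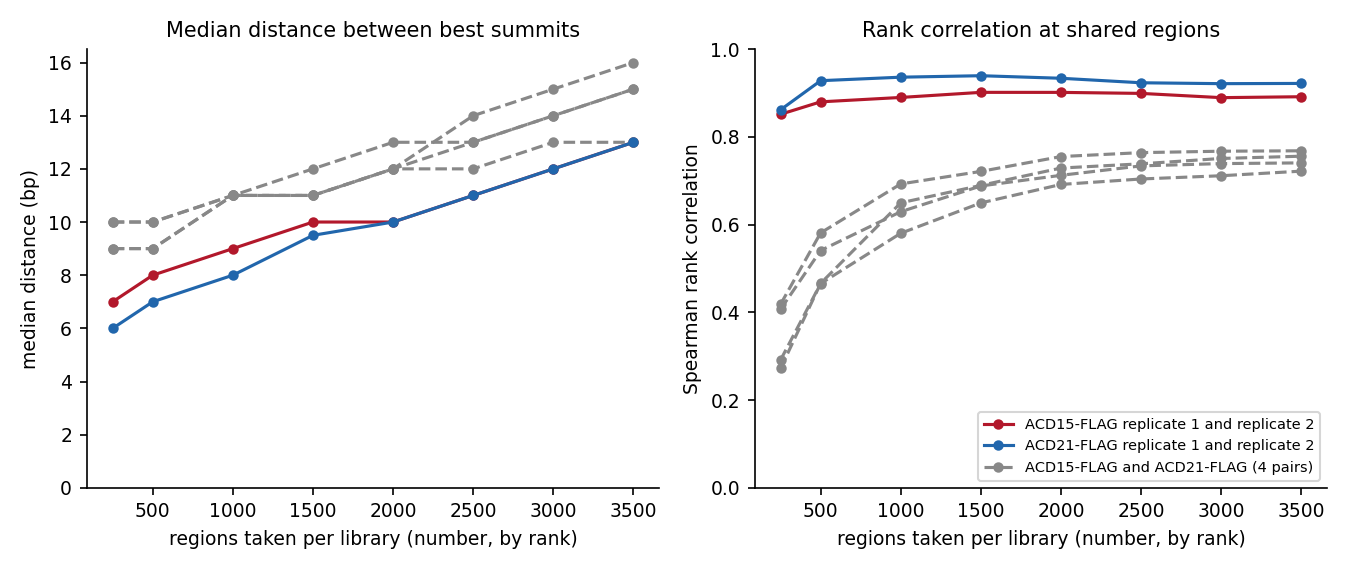
Left, median distance in bp between the best summits of overlapping regions, and right, Spearman correlation of their ranks, each against the number of regions taken per library from the top of its list. Solid lines are the pair of ACD15 libraries (red) and the pair of ACD21 libraries (blue, which covers red from 2000 regions on in the left plot), and dashed grey lines are the 4 pairs between proteins. At 3500 regions the correlation was 0.892 and 0.922 within proteins and 0.722 to 0.768 between them.

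The order of the shared sites differed between the proteins far more than between replicates. At the 2371 sites of all 4 lists, ranks correlated with a Spearman rho of 0.944 in the ACD15 pair and 0.941 in the ACD21 pair, and of 0.721, 0.734, 0.761 and 0.775 between proteins. These correlations are across sites of the same 4 libraries and describe them without a test. The median difference in rank was 162 places in the ACD15 pair, 159 in the ACD21 pair and 355 to 386 between proteins. Among the 250 highest regions the overlapping ones correlated by 0.852 and 0.862 within proteins and by only 0.272 to 0.419 between them. Fold in place of rank gave 0.940 and 0.942 within proteins and 0.722 to 0.777 between them.

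CG density at the summits was lower in the ACD15 lists. CG dinucleotides, which read the same on both strands, were counted in 200 bp around each best summit. Their mean was 4.07 and 4.17 per 100 bp in the ACD15 libraries, against 4.80 and 4.85 in the ACD21 libraries, and the genome holds 2.34. The medians were 3.5 and 4.0 per 100 bp in ACD15-FLAG, against 4.5 in each ACD21-FLAG library (difference −0.75, exact permutation p = 0.333). GC content differed less, with medians of 36% in both ACD15 libraries, against 37.5% and 37.75% in the ACD21 libraries. Ranks 1 to 500 held 5.73 and 5.76 CG per 100 bp in ACD15-FLAG, against 6.78 and 6.90 in ACD21-FLAG, and ranks 3001 to 3500 held 3.29 and 3.72 against 4.10 and 4.20. In 7 of 7 blocks of 500 ranks, both ACD15 libraries were below both ACD21 libraries.

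Places in the genome differed in the same lists. A promoter, the 1 kb before the start of a protein-coding gene, held the centre of 34.1% and 33.7% of ACD15 regions, against 29.5% and 29.3% of ACD21 regions and 13.7% of the genome. Bodies of protein-coding genes held 11.4% and 11.5% of ACD15 regions, against 14.1% and 14.2% of ACD21 regions, both far below the 54.1% of the genome they cover. Gene-poor bins, stretches of 100 kb where exons of protein-coding genes cover less than 20% of the sequence, held 18.1% and 17.1% against 22.2% and 23.2%, and make up 16.8% of the genome. Annotated pseudogenes held 5.03% and 6.43% against 6.57% and 7.29%. In each of these measures the groups did not overlap, and every difference had an exact permutation p of 0.333, the smallest possible: 4.5 percentage points for promoters (33.9% ± 0.283 in ACD15-FLAG against 29.4% ± 0.182 in ACD21-FLAG, SD, n = 2 each), −2.76 for gene bodies, −5.14 for gene-poor bins and −1.20 for pseudogenes. The pseudogene difference was −0.50 without ACD15 replicate 1 and −1.90 without ACD15 replicate 2. The order held in 5 of 7 blocks of 500 ranks for promoters and in 6 of 7 for gene-poor bins. For gene bodies it held in 6 blocks and was turned round in 1, and for pseudogenes it held in 3 and was turned round in 2. In the top 1500 the pseudogene difference was 0.267. Best summits lay at a median of 1216.5 and 1183.5 bp from the nearest protein-coding start in ACD15-FLAG, against 1415.5 and 1414.5 bp in ACD21-FLAG, and 7.37% and 7.17% were beyond 5 kb, against 11.1% and 11.8%.

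**Figure D3:**
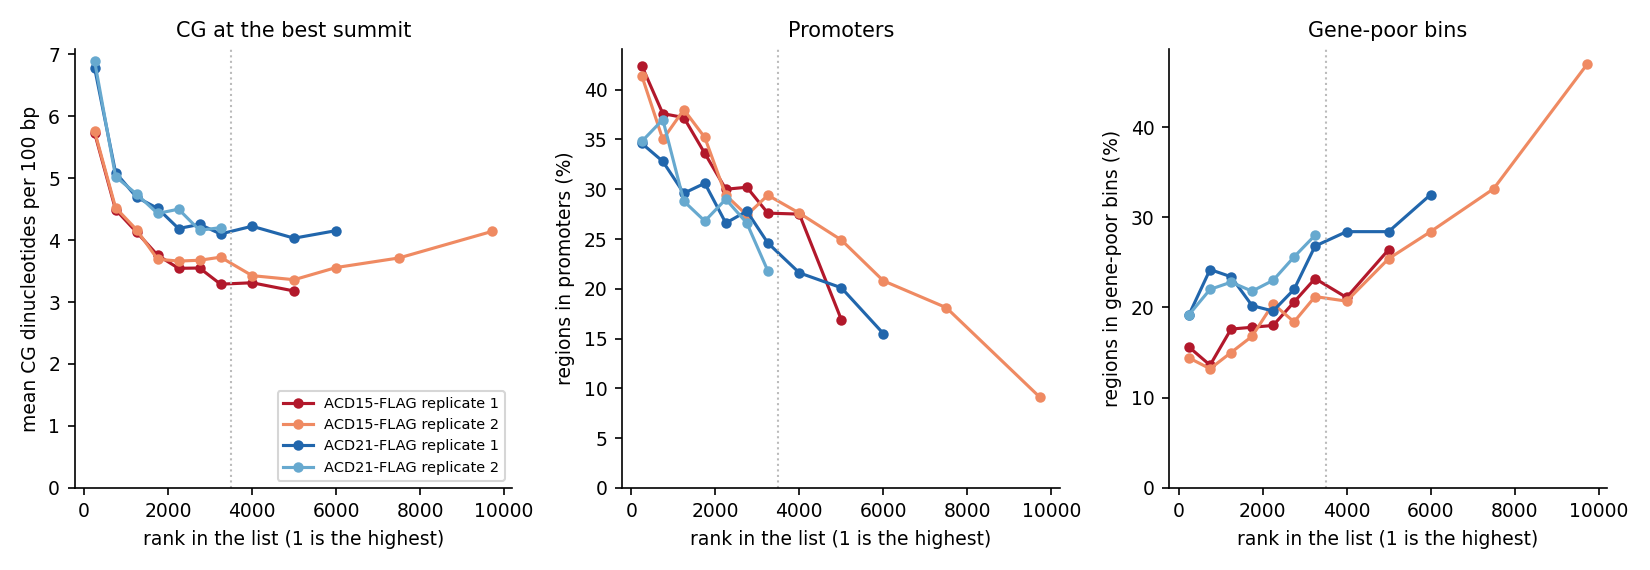
Mean CG dinucleotides per 100 bp around the best summit (left), share of regions in promoters (middle) and share in gene-poor bins (right) against rank, in blocks of 500 ranks up to 3500 (dotted line) and of 1000 or more beyond it. Red lines are ACD15 libraries and blue lines ACD21 libraries. Both red lines lie below both blue lines in 7 of 7 blocks up to the dotted line for CG, and the longest list, ACD15 replicate 2, ends at 46.9% of regions in gene-poor bins.

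The contrasts above are those at equal ranks, and the full lists gave other values. In ACD15 replicate 2, ranks 8501 to 10946 lay in pseudogenes in 31.7% and in gene-poor bins in 46.9% of cases, with a median GC content of 43%. In ACD15 replicate 1, ranks 4501 to 5500 lay in pseudogenes in 9.3% and in gene-poor bins in 26.4% of cases, with a median GC content of 35.5%. In full, promoters held 29.3% and 22.8% of ACD15 regions, against 24.2% and 29.0% of ACD21 regions, so the groups overlapped and the difference turned to −0.565 percentage points. For gene-poor bins the full lists had 20.3% and 28.8% in ACD15-FLAG, against 26.5% and 23.2% in ACD21-FLAG, a difference of −0.327 points, and the difference for gene bodies was −0.505 points. At ranks 3501 to 4500, which ACD21 replicate 2 does not reach, gene-poor bins held 21.1% and 20.7% of ACD15 regions, against 28.4% of ACD21 replicate 1.

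The sites of 1 protein, a part of the same 4 lists without the shared sites, showed the contrast most sharply. The 345 sites in both ACD15 top lists and neither ACD21 top list held 2.49 CG per 100 bp on average, close to the 2.34 of the genome. The 299 sites of ACD21 held 6.43, and the 2371 sites of all 4 lists held 4.58. At least 5 CG per 100 bp were found at 8.12% of the ACD15 sites, against 64.9% of the ACD21 sites. Median GC content was 32.5% against 44%. The ACD15 sites had median ranks of 2672 and 2673 in their own lists, and the ACD21 sites 2251 and 2350. At ranks 2501 to 3000 ACD15 regions as a whole held 3.55 and 3.67 CG per 100 bp, and at ranks 2001 to 2500 ACD21 regions held 4.19 and 4.50. Both sets were farther apart in CG than whole blocks of such ranks, which also hold shared sites. The sets leave the shared sites out, so a wider gap was largely given by how they were formed. The sets were formed by presence in these lists, and no test is given for them.

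Their places parted as well. Promoters held 43.2% of the ACD15 sites (95% exact binomial interval over sites 37.9 to 48.6), against 5.35% of the ACD21 sites (3.09 to 8.54). With full lists these shares were 30.6% of 661 ACD15 sites, against 9.09% of 11 ACD21 sites, and with 50% reciprocal overlap 43.4% against 10.5%. They were 40.5% against 8.31% without ACD15 replicate 1, 36.4% against 10.2% without ACD15 replicate 2, 40.4% against 8.77% without ACD21 replicate 1 and 39.5% against 9.38% without ACD21 replicate 2. These settings were chosen after seeing the data. Gene-poor bins held 9.57% of the ACD15 sites (6.68 to 13.2), against 45.8% of the ACD21 sites (40.1 to 51.7), and gene bodies held 6.67% against 28.8%. The best summit fell in a coding exon at 1.16% of the ACD15 sites, against 23.1% of the ACD21 sites. Pseudogenes held 4.35% of the ACD15 sites, against 14.0% of the ACD21 sites. Sites in the list of 1 library alone leaned the same way. They held 2.46 and 3.11 CG per 100 bp for the ACD15 libraries, against 4.92 and 5.48 for the ACD21 libraries. Such sites come from the same 4 lists and are no separate support. The intervals treat sites as units and cover counting error only.

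**Figure D4:**
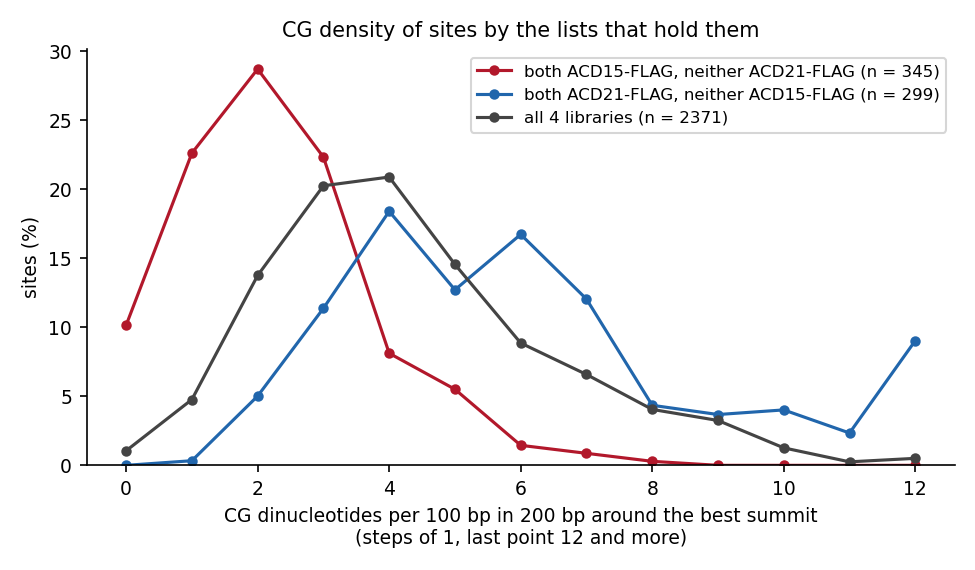
Share of sites (y axis, %) by CG dinucleotides per 100 bp in 200 bp around the best summit (x axis, steps of 1, the last point 12 and more), for sites in both ACD15 and neither ACD21 list (red, 345), in both ACD21 and neither ACD15 list (blue, 299) and in all 4 lists (grey, 2371). The red curve lies farthest to the left and the blue curve mostly to the right of the grey one, with means of 2.49, 6.43 and 4.58 CG per 100 bp.

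Nearly all sites of either protein were places of MBD5 or MBD6. The merged regions that the authors deposited for these proteins, covering 10.5% of the genome, overlapped 98.9% of the top regions in both ACD15 libraries, against 98.7% and 98.5% in the ACD21 libraries. The difference was 0.30 percentage points (exact permutation p = 0.333), and it was −2.29 with the full lists. At the sites of 1 protein, 99.1% of the ACD15 set and 96.3% of the ACD21 set lay in those regions. Peaks of RFP-tagged MBD6 in wild type, from batch 2, covered the sets less evenly. Replicate 1 of MBD6-RFP overlapped 15.65% of the ACD15 sites, against 23.4% of the ACD21 sites, and 44.0% of the sites of all 4 lists. Replicate 2, the shorter list, overlapped 0.580% of the ACD15 sites, against 25.4% of the ACD21 sites, and 16.0% of the sites of all 4 lists. Batch and tag differ between these lists and the FLAG lists, and their part in the overlaps was not tested.

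Within the shared sites the same order appeared. Of the 2371 sites, 1036 (43.7%) ranked higher in both ACD15 libraries than in either ACD21 library, and 679 (28.6%) ranked higher in both ACD21 libraries than in either ACD15 library. CG dinucleotides averaged 3.82 per 100 bp at the sites ranked higher in ACD15-FLAG, against 5.81 at those ranked higher in ACD21-FLAG, and 4.51 at the 656 sites whose ranks overlapped. Promoters held 43.2% of the sites ranked higher in ACD15-FLAG, against 20.6% of those ranked higher in ACD21-FLAG, and gene-poor bins held 12.7% against 28.3%. Across the 2371 sites, the ACD21 rank minus the ACD15 rank correlated with CG density by a Spearman rho of −0.389 to −0.412 in the 4 pairs between proteins, and the rank difference within a protein by −0.0765 in the ACD15 pair and −0.0373 in the ACD21 pair. All points share the same 4 libraries, and the correlations carry no test. With GC content in place of CG, the values between proteins were −0.0568 to −0.166. Within proteins they were 0.0923 in the ACD15 pair and −0.109 in the ACD21 pair, of similar size.

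**Figure D5:**
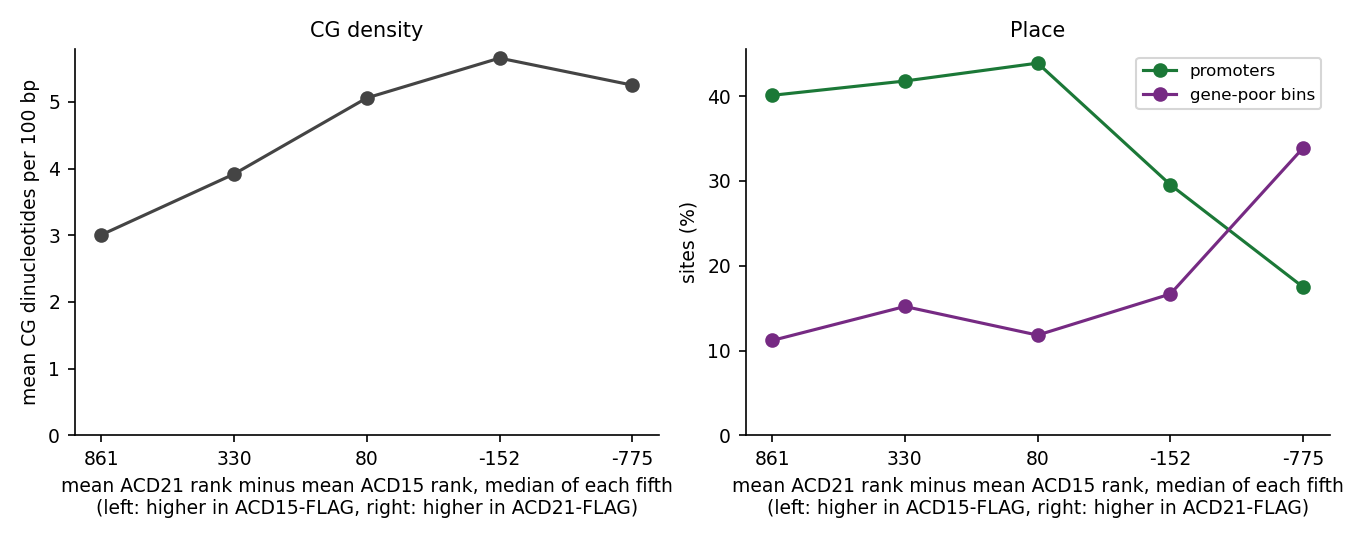
Mean CG dinucleotides per 100 bp (left) and share of sites in promoters and gene-poor bins (right, %) in 5 groups of 474 or 475 shared sites, ordered by the mean ACD21 rank minus the mean ACD15 rank. Sites ranked higher in ACD15-FLAG stand on the left and sites ranked higher in ACD21-FLAG on the right. CG density was 3.01 at the left end, 5.66 in the fourth group and 5.25 at the right end, and gene-poor bins held 11.2% and 33.9% of the sites.

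Single sites illustrate the ACD15 set. Besides the ACD15 gene, the highest-ranking site with no ACD21 region in either full list at a gene with a symbol was at PAP12, which encodes a purple acid phosphatase. Its region on chromosome 2 from 11623621 to 11624042 peaked 196 bp before the gene, with ranks of 2008 and 1850 and folds of 2.73 and 4.83. At POP2, the gene of a GABA transaminase that acts in pollen tube guidance, a region on chromosome 3 from 7834548 to 7834946 had folds of 2.82 and 4.02 and a summit 380 bp upstream. The same region also touched the gene IQD5 or the 1 kb upstream of it. A region 1631 bp upstream of EXPA1, an expansin gene of cell wall loosening, on chromosome 1 from 26139863 to 26140336, had folds of 2.71 and 4.52. These 3 sites held 0.5, 2.5 and 1.5 CG per 100 bp, and all lay in MBD5/MBD6 regions. They ranked in the lower part of the top 3500 of both ACD15 libraries. Sites that ACD21 replicate 1 still called below rank 3500 included that of RPF1, at ranks 1398 and 1376 in ACD15-FLAG, against rank 4855 in ACD21 replicate 1 and no region in replicate 2. The region 269 bp upstream of ATNTH1, a DNA glycosylase gene, had ranks of 1569 and 1638 in ACD15-FLAG, against 3968 and no region in ACD21-FLAG, and 0.5 CG per 100 bp. The sites of RPF1 and ATNTH1 also touched PP2-A12 and AT2G31460, respectively, or the 1 kb upstream of these genes.

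The ACD21 set lay mostly, though not only, in other kinds of place. Besides the region at its own gene, the highest-ranking site with no ACD15 region in either full list was the one beyond AT4G12530 printed above, on chromosome 4 from 7424995 to 7425431, with ranks of 602 and 594 and folds of 5.07 and 3.62. The protein-coding gene AT5G32440 had a region with a summit 202 bp upstream, at ranks 1639 and 1361 with folds of 3.42 and 2.65. That region lay in a gene-poor bin, with 4.0 CG per 100 bp. AT2G10330, a pseudogene, had a region 1581 bp upstream with folds of 3.28 and 2.40. AT1G14710 had one in a coding exon with folds of 2.53 and 1.83. The sites of AT4G12530, AT2G10330 and AT1G14710 held 3.0, 4.0 and 5.5 CG per 100 bp. All 6 sites in no full ACD15 list averaged 3.83, below the 4.58 at sites of all 4 lists. Sites that ACD15 libraries called below rank 3500 included the one upstream of AT3G32420, with folds of 2.13 and 3.24 in ACD15-FLAG, against 4.34 and 3.47 in ACD21-FLAG, and ranks of 3675 and 4220 against 974 and 731. Regions inside the pseudogenes AT2G13142 and AT4G06494 had ranks of 4302 and 3864 and of 3529 and 4185 in ACD15-FLAG, against 829 and 923 and 842 and 916 in ACD21-FLAG. All 3 lay in gene-poor bins, with 8.5, 6.0 and 7.0 CG per 100 bp. In an intron of EDA34, a gene named for arrest of embryo sac development, the region had no call in ACD15 replicate 1 and rank 3534 in replicate 2, against ranks 876 and 1051 in ACD21-FLAG, and 13.5 CG per 100 bp.

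The sites at the top of all 4 lists were dense in CG. The region upstream of the pseudogene AT5G38037 had ranks of 9 and 2 in ACD15-FLAG, against 4 and 1 in ACD21-FLAG, and the one upstream of AT4G19510 had 12 and 5 against 3 and 2. The region upstream of AT5G27950 had 2 and 1 against 17 and 7, and that upstream of AT2G40420 had 18 and 3 against 12 and 4. They held 9.0 to 11.0 CG per 100 bp, and all 4 lay in MBD5/MBD6 regions. In ACD21 replicate 1, the first 12 regions tied at the highest −log10 q, so fold set their order. Among the 8 regions with the best mean ranks, the region of AT1G16680 had summits from 5701981 to 5701990 on chromosome 1 in 3 libraries and at 5700064 in ACD21 replicate 2, so the best of its summits was another one there.

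The shared sites that differed most in rank between the proteins held 0 to 2.0 CG per 100 bp where ACD15-FLAG ranked them higher, against 4.0 to 12.5 where ACD21-FLAG did, in 4 sites each. The region 227 bp upstream of DMC1, the meiotic recombinase gene, had ranks of 1038 and 768 in ACD15-FLAG, against 2569 and 3120 in ACD21-FLAG, and 0.5 CG per 100 bp. The region 143 bp upstream of ARLA1A, an ARF-like GTPase gene, had ranks of 947 and 861 against 2929 and 2944, and a window with no CG. CIA2, a transcription factor gene for chloroplast protein import, had a region 1111 bp upstream with ranks of 778 and 689 against 2764 and 3018, and 2.0 CG per 100 bp. In the other direction, a region in a coding exon of U1-70K, a splicing factor gene, had ranks of 3234 and 2816 in ACD15-FLAG, against 753 and 748 in ACD21-FLAG, and 7.0 CG per 100 bp. The pseudogene AT1G54926 had ranks of 3497 and 3198 against 1020 and 1190, and 12.5 CG per 100 bp. A region in an intron of AT5G61140 had ranks of 3084 and 3261 against 896 and 993, and 4.0 CG per 100 bp, below the mean of 4.58 at all shared sites. These sites were picked for their rank difference, so the ranks are a description.

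Genes were then counted for each protein. A gene was taken as holding a region when one overlapped it or the 1 kb upstream of it. In the top 3500, 2087 of 27444 protein-coding genes (7.60%) held a region in both ACD15 libraries and 1804 (6.57%) in both ACD21 libraries. All 4 libraries had 1593 of them, 250 were in both ACD15 and neither ACD21 library, and 108 in both ACD21 and neither ACD15 library. In the full lists 3123 genes (11.4%) held a region in both ACD15 libraries and 2009 (7.32%) in both ACD21 libraries.

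A list drawn up for methylated or imprinted promoters had 14 matched genes, and whether each has such a promoter was not checked. Of these, 4 held a top region in both ACD15 libraries and the same 4 in both ACD21 libraries: FWA, BNS, HDG8 and ROS1. FWA, a homeodomain gene silenced by methylation at its start, had ranks of 1369 and 1507 in ACD15-FLAG, against 2520 and 1888 in ACD21-FLAG. ROS1, a DNA demethylase gene that is expressed when its promoter is methylated, had ranks of 228 and 233 against 560 and 698, so it stood higher in both ACD15 lists. HDG8, an imprinted homeodomain gene, had ranks of 826 and 672 against 541 and 595, and BNS, a gene for a subunit of the anaphase-promoting complex, had 1776 and 2242 against 1157 and 965. Both stood higher in both ACD21 lists. The BNS summit lay beyond the gene, in an annotated transcribed pseudogene, and the HDG8 summit at −1110 to −1098 bp from the start. In the full lists 7 of the 14 held a region in both ACD15 libraries and 4 in both ACD21 libraries. The added ones were QQS, an orphan gene of starch metabolism, HDG9, a homeodomain gene, and SNC1, an immune receptor gene. QQS had ranks of 4779 and 4005 in ACD15-FLAG, against 4809 in ACD21 replicate 1 and no region in replicate 2. HDG9 and SNC1 had folds of 2.12 and 2.94 and of 1.85 and 2.77 in ACD15-FLAG, against no region in either ACD21 library, and their summits lay in coding exons.

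Genes of the methylation machinery were counted in the same way. Of 15 genes of RNA-directed DNA methylation, 2 held a top region in both ACD15 libraries and 1 in both ACD21 libraries. NRPE1, which encodes the main catalytic subunit of RNA polymerase V, had a region upstream in all 4, with ranks of 1232 and 1146 in ACD15-FLAG, against 1363 and 1719 in ACD21-FLAG. CLSY1, a chromatin remodeller that recruits RNA polymerase IV, had ranks of 1394 and 1269 in ACD15-FLAG, against rank 2013 in ACD21 replicate 2. In ACD21 replicate 1 no region reached into the gene or the 1 kb upstream of it. The CLSY1 summits lay at −1437 to −1389 bp from the start, outside that 1 kb, so the regions only crossed its edge. Absence in ACD21 replicate 1, and with it the count above, therefore rests on that edge. A region farther upstream was not looked for. DCL3, which dices the precursors of the small RNAs, had ranks of 3292 and 4064 in ACD15-FLAG, against 6218 and no region in ACD21-FLAG. Of 12 genes of maintenance methylation and silencing, 2 held a top region in both ACD15 libraries and 1 in both ACD21 libraries. SUVH5, a histone methyltransferase gene, had ranks of 851 and 892 in ACD15-FLAG, against 1726 and 1722 in ACD21-FLAG. VIM1, whose product helps to copy CG methylation, had ranks of 1471 and 1568 in ACD15-FLAG, against 2279 and no region in ACD21-FLAG.

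Among the genes of the complex, MBD5 had a region upstream in all 4 lists, with ranks of 1466 and 1028 in ACD15-FLAG, against 2339 and 3323 in ACD21-FLAG. MBD6 had none. SLN had a region in ACD15 replicate 2 at rank 6222 and in ACD21 replicate 1 at rank 5177 only. None of 6 matched genes of other small heat shock proteins held a region in any list. Of 10 genes of floral identity, TFL1, which keeps the inflorescence meristem from becoming a flower, had a region in both libraries of each protein. Its region on chromosome 5 lay at 1026378 to 1027104 in ACD15 replicate 1, with ranks of 689 and 712 in ACD15-FLAG, against 878 and 670 in ACD21-FLAG. The counts over these lists are small and stand beside 7.60% and 6.57% of all genes, and nothing particular to the lists is read from them.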

How the data were processed

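The submitters' processing notes name the peak caller MACS2 2.1.0, the aligner Bowtie2, deepTools 3.0.2, Trim Galore, HOMER and Picard, and the build TAIR10, without settings or order. A separate peak list was deposited for each library; by their names, the FLAG lists had Col-0 control peaks taken out. The deposited lists give a fold enrichment, a ratio, and the −log10 of q; both are the peak caller's values. No file used holds read counts. Entries with the same chromosome, start and end were joined, keeping the highest −log10 q, and ranked by it. Libraries were grouped by the transgene label. Overlap required 1 bp. Gene models and sequence came from TAIR10.1 (RefSeq), whose nuclear chromosome lengths hold every region. A centre inside a protein-coding gene counted as gene body, otherwise as pseudogene, then as promoter (1 kb). Single values of the 2 ACD15 and 2 ACD21 libraries were compared by an exact two-sided permutation test, whose smallest p is 0.333. It sets the difference of group means against those of the relabelled libraries and does not measure spread. Differences between libraries may be technical. Intervals are 95% exact binomial (Clopper-Pearson). Scripts (Python 3.11.15, pandas 2.3.3, numpy 2.4.6, scipy 1.17.1) were tested on simulated data. Named sites were chosen by rule: up to 8 with the best mean ranks per class, 4 with the widest rank difference in each direction, the genes of the complex, and list members with a region in both libraries of a protein; within the classes those described were picked after their values were seen. The members and lists were chosen with earlier results of these data known. RPP7 and 4 small heat shock genes had no match by symbol, SEP1 and SEP2 had 2 each, and none of these is analysed here.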

Additional observations from a re-analysis of the deposited data

How the results depend on the processing

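Under the alternatives run, the direction held for the number of regions, covered length, width, several summits, gene bodies, gene-poor bins, CG at summits and summit distance, though with full lists gene bodies came to −0.505 and gene-poor bins to −0.327 percentage points, and leaving out 1 library gave 33.5 to 283.5 bp for width and 1.69 to 18.23 points for several summits; no permutation test could pass 0.05 under any of them. Reversed values were 0.267 percentage points for pseudogenes in the top 1500 and, with full lists, −0.565 for promoters, 0.819 for pseudogenes, −2.29 for MBD5/MBD6 regions and −0.0117 for the Jaccard difference; the full lists differ in length, and the cause was not tested. Leaving out 1 library in turn, the Jaccard difference ran from −0.00392 (without ACD21 replicate 2) to 0.141, the ACD15 sites numbered 474 to 572 and the ACD21 sites 349 to 513, since 1 list fewer is required or barred. In the top 1500 the ACD15 sites numbered 215 and the ACD21 sites 202. With full lists, which differ in length, they numbered 661 and 11. When any region of a full list of the other protein was barred, they numbered 52 and 6. Under alternatives chosen after seeing the data, CG density at ACD15 sites minus ACD21 sites was −3.94, and −3.07 in the top 1500, −2.54 with full lists, −3.13 with 50% reciprocal overlap, −3.62 with 200 bp regions and −3.47 to −3.19 leaving out 1 library. The rank correlation within minus between proteins was 0.195, and 0.259 in the top 1500. With a replicate block the differences were the same values (4.5 percentage points for promoters, −5.14 for gene-poor bins and −2.76 for gene bodies), and the smallest p of sign flips is 0.5; libraries of the same number deviated with a correlation of −0.0987 in log2 fold and −0.0119 in rank, so the numbers do not pair them and no call changed.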

Other observations

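Some sites were shared by 3 libraries, which is another part of the same 4 lists and no separate support. A region was missing only from the top list of ACD15 replicate 1 at 140 sites and only from that of ACD15 replicate 2 at 50 sites, against 129 sites for ACD21 replicate 1 and 220 for ACD21 replicate 2. Sites that lacked an ACD15 replicate held 5.08 CG per 100 bp (without replicate 1) and 4.25 (without replicate 2), against 2.92 (without replicate 1) and 3.33 (without replicate 2) at sites that lacked an ACD21 replicate. Promoters held 15.71% and 26.0% of the sites lacking an ACD15 replicate, against 29.5% and 35.9% of those lacking an ACD21 replicate.

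The 52 ACD15 sites in no full ACD21 list held 2.18 CG per 100 bp, against 2.49 at the 345 sites they belong to. Promoters held 51.9% of them (95% exact binomial interval 37.6 to 66.0), against 43.2% of the 345 (37.9 to 48.6). The 52 are part of the 345, so these overlapping intervals do not compare separate sets. Pseudogenes and gene bodies each held 7.69%, against 4.35% and 6.67% of the 345, and gene-poor bins held 1.92%, against 9.57%. The 6 ACD21 sites in no full ACD15 list held 3.83 CG per 100 bp. The 299 sites they belong to held 6.43, and the sites of all 4 lists held 4.58. The high CG density of the 299 sites was thus not seen in these 6. Of the 6, 4 lay in MBD5/MBD6 regions, and the region at the ACD21 gene is 1 of the others.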
